A study of Mus musculus with 3 samples.

Results

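The MHC class II genes and their regulators were followed here as 10 genes of the 24982 gene symbols measured by RNA sequencing in mouse LKS cells: H2-Aa, H2-Ab1 and H2-Eb1, Cd74, H2-DMa, H2-DMb1 and H2-DMb2, Ciita, Rfx5 and Rfxank. They were chosen by name, with the difference between the CD73 KO library and the WT libraries already known. Their KO and WT values are therefore given as a description, without a test. LKS cells are bone marrow cells negative for lineage markers and positive for Kit and Sca1, which include the haematopoietic stem cells and their early progeny. The groups were LKS cells of WT recipient mice, with 2 libraries (WT replicates 1 and 2), and LKS cells of CD73-/- recipient mice, with 1 library (the KO library). CD73 is a cell-surface enzyme that produces adenosine. Both groups were recipients. The labels do not say what they received or from whom the sorted cells descended, and give no strain, age, sex or number of animals.

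MHC class II molecules present peptides from the endosomal pathway to CD4 T cells. An alpha and a beta chain pair in the endoplasmic reticulum with the invariant chain, encoded by Cd74, which guides them to endosomes, where the DM heterodimer exchanges the remaining fragment of the invariant chain for peptide. Transcription of these genes depends on Ciita, a coactivator that binds no DNA itself but docks on a complex of RFX proteins, CREB and NF-Y assembled on the X and Y boxes of class II promoters. Dendritic cells, B cells and macrophages are the main cells known to express class II genes, and Rfx5 and Rfxank are expressed in many cell types.

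Promoters are shown for the X and Y boxes, which were searched for in every member with a promoter in the table used. The RefSeq promoter table (GRCm38.p6, the same assembly as mm10) held 7 of the 10 genes. The 150 bases before the start site of H2-Eb1, H2-DMb1, H2-DMb2 and H2-Aa, the class II chains in that table with a single start, follow 5′ to 3′ on the strand of the gene. Capitals mark matches on either strand to AACNGATG or AGNAAC, which are versions of the X box that overlap by 3 letters, and to ATTGG, the core of the Y box.
H2-Eb1 (chr17:34305717-34305866, plus strand): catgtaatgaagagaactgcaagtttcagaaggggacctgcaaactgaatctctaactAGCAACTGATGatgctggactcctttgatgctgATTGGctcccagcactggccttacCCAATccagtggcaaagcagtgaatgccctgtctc
H2-DMb1 (chr17:34153041-34153190, plus strand): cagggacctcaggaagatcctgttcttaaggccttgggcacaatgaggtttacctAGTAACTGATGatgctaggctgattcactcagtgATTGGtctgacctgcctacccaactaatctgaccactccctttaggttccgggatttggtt
H2-DMb2 (chr17:34145099-34145248, plus strand): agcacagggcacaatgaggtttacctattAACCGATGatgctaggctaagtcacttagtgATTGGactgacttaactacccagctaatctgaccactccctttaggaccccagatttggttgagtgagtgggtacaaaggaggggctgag
H2-Aa (chr17:34287824-34287973, minus strand): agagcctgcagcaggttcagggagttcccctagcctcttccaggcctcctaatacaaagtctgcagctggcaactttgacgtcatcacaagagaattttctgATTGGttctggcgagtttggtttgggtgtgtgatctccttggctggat

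H2-Eb1, H2-DMb1 and H2-DMb2 each carried AACNGATG followed on the same strand by ATTGG, with 22, 23 and 23 bases between them. AACNGATG began 89, 92 and 121 bases before the start in these 3 promoters. Allowing 8 to 30 bases between the motifs and both strands, the pair occurred in 7 of 32851 promoter windows of 250 bases, a share of 0.0213%. Of these 7 windows 3 belonged to members, 1 to H2-Eb2, a further class II beta gene, and the others to BC051142, H2-M10.4 and Gm35697. H2-Eb2, BC051142 and H2-M10.4 had 0 counts in all 3 libraries, so the same letters also stood before genes without a count. The version AACNGATG was written after the sequences had been seen. With the broader core AGNAAC the pair was found in H2-Eb1 and H2-DMb1, and in 1.12% of all windows. H2-Aa held ATTGG 48 bases before its start and neither AACNGATG nor AGNAAC. Other forms of the X box were not searched for, so its absence from H2-Aa cannot be read from this. ATTGG alone was present in all 7 members in the table and in 33.8% of all windows.

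The libraries were shallow, with 361638 and 324954 gene counts in WT replicates 1 and 2 and 264704 in the KO library. A single count corresponds to 2.77, 3.08 and 3.78 CPM (gene counts scaled by the library's total). Nt5e, the gene of CD73, was at 0 counts in each library, WT included, so the genotype label could not be checked on it. Intervals are exact 95% Poisson intervals, computed from each count alone, and cover counting error only. Molecular identifiers that would mark separate molecules are not mentioned in the sources used here. Repeated copies of a molecule could therefore make the intervals too narrow. With 1 KO library the spread between KO animals is unknown, and the labels do not say whether each WT library came from its own animal.

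The classical chains were low in both WT libraries and high in the KO library. H2-Ab1, the beta chain of I-A (chromosome 17, 34263227 to 34269418, mm10), had 24 and 11 counts in the WT libraries (replicate 1 first) and 201 in KO. This is 66.4 CPM (42.5 to 98.7), 33.9 CPM (16.9 to 60.6) and 759 CPM (658 to 872). H2-Aa, the alpha chain of I-A (34282744 to 34287823), had 0, 9 and 106 counts in the same order, with KO at 400.4 CPM (328 to 484). Both genes of the I-A heterodimer thus stood high in KO and low in both WT libraries. Their WT counts did not run in parallel from replicate 1 to replicate 2, with H2-Ab1 going from 24 to 11 and H2-Aa from 0 to 9. The 2 WT intervals of H2-Ab1 overlapped. Against WT replicate 2 alone KO was 22.4-fold higher for H2-Ab1 and 14.5-fold for H2-Aa, and against the pooled WT libraries 14.9-fold and 30.5-fold. H2-Eb1, the beta chain of I-E (34305867 to 34316674), had 19, 21 and 156 counts, or 52.5 CPM (31.6 to 82.0), 64.6 CPM (40.0 to 98.8) and 589 CPM (500.5 to 689). Its WT libraries lay close together. The counts of the 3 classical chains summed to 43, 41 and 463, so their summed level was 119 and 126 CPM in the WT libraries and 1749 CPM in KO. KO lay 14.3-fold above the pooled WT libraries (95% counting interval 11.3 to 18.3). H2-Ea-ps, the I-E alpha pseudogene, had 0 counts in every library.

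Cd74 differed widely between the WT libraries. It had 7, 150 and 252 counts in the order used above, or 19.4 CPM (7.78 to 39.9), 462 CPM (391 to 542) and 952 CPM (838 to 1077). The KO level was 49.2-fold that of WT replicate 1 and 2.06-fold that of WT replicate 2 (counting interval 1.68 to 2.54), so the size of the difference rests on which WT library is taken. WT replicate 2 exceeded WT replicate 1 by 23.8-fold (11.3 to 60.3). For each count of the 3 classical chains there were 0.163 Cd74 counts (0.0618 to 0.365) in WT replicate 1, 3.66 (2.57 to 5.30) in WT replicate 2 and 0.544 (0.465 to 0.636) in KO. WT replicate 2 thus held Cd74 without a matching level of the chains that it escorts.

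The DM genes encode the heterodimer that edits the peptide on class II molecules. H2-DMa, its alpha chain (34119693 to 34139101), had 51, 49 and 84 counts, or 141 CPM (105 to 185), 151 CPM (112 to 199) and 317 CPM (253 to 393). Its WT libraries lay close together, and its difference was the smallest of the 8 members that were higher in KO when taken against the pooled WT libraries, at 2.18-fold (1.61 to 2.94). H2-DMb1, a beta chain (34153191 to 34160229), had 12, 26 and 77 counts and reached 291 CPM in KO (230 to 364). H2-DMb2, the other beta chain (34143229 to 34151553), had 3, 2 and 102 counts, with KO at 385 CPM (314 to 468). The ratio to the pooled WT libraries was 5.26 (3.52 to 7.97) for H2-DMb1 and 52.9 (21.9 to 166) for H2-DMb2. For H2-DMb1 the ratios to the single WT libraries were 8.77 (replicate 1) and 3.64 (replicate 2). The 2 beta genes resemble each other, and 27.2% of the 50-base windows of the H2-DMb1 transcript also occurred in that of H2-DMb2 (GENCODE M21), so reads of those stretches could be given to either and the split between the genes is uncertain.

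**Figure D1:**
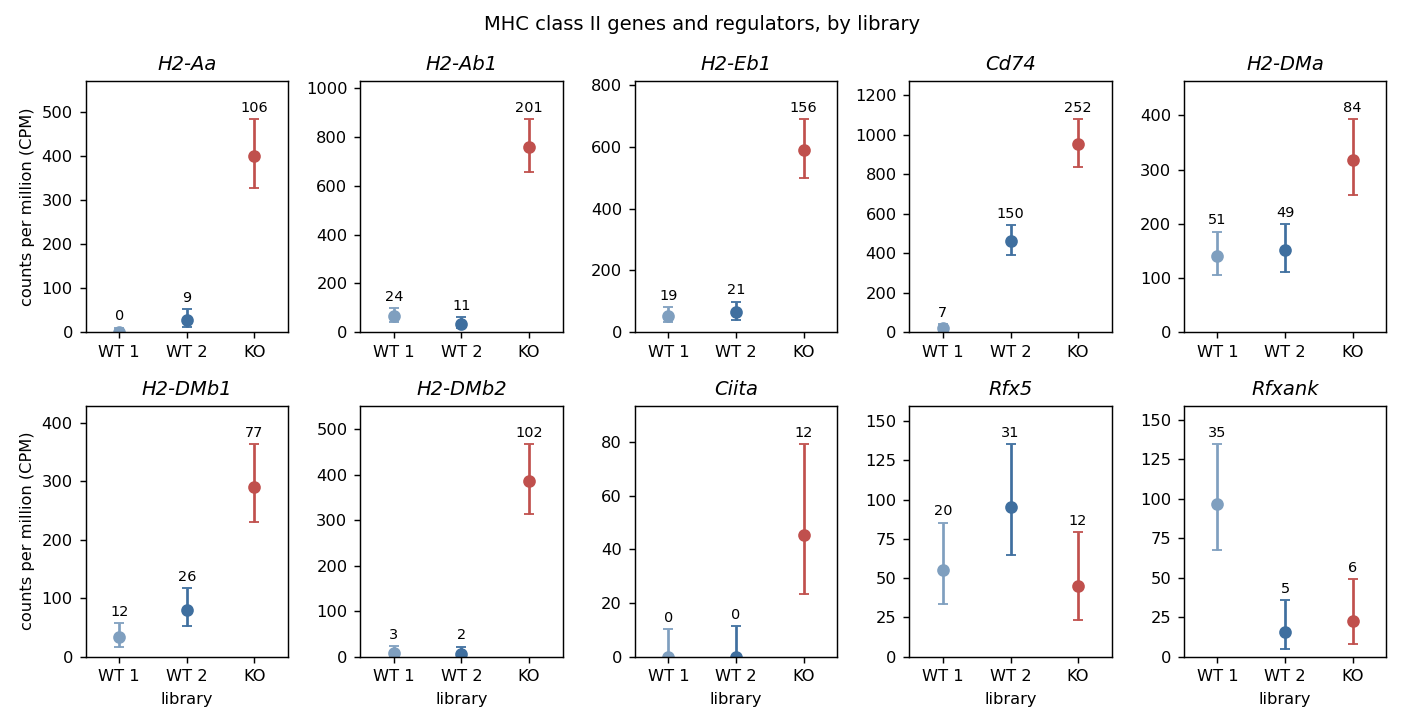
Level of each of the 10 genes in CPM (vertical axes, each from 0 with its own range) in WT replicate 1, WT replicate 2 and the KO library (horizontal axes); points are values, bars exact 95% Poisson intervals and the printed numbers counts. The KO interval lies above both WT intervals for 8 genes, beside 12.1% of all genes tested, and not for Rfx5 and Rfxank.

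The regulators did not share one pattern. Ciita (chromosome 16, 10480014 to 10531064), the class II coactivator, had 0 counts in both WT libraries and 12 in KO, or 45.3 CPM (23.4 to 79.2). Against the limit of 3 counts in each WT library, KO was at least 5.19-fold higher than the pooled WT level. Rfx5 (chromosome 3, 94950689 to 94961561), the DNA-binding subunit of the RFX complex, had 20, 31 and 12 counts, or 55.3 CPM (33.8 to 85.4), 95.4 CPM (64.8 to 135) and 45.3 CPM (23.4 to 79.2). KO was the lowest library, and its interval overlapped both WT intervals. Rfxank (chromosome 8, 70130806 to 70139197), the ankyrin-repeat subunit, had 35, 5 and 6 counts, so that KO at 22.7 CPM (8.32 to 49.3) lay between WT replicate 1 at 96.8 CPM and WT replicate 2 at 15.4 CPM. The third RFX subunit, Rfxap, had 5, 4 and 4 counts. The 3 member regulators together summed to 152, 111 and 113 CPM, with KO at 0.855 of the pooled WT level (0.546 to 1.30).

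Transcript rows added little for most members, because all rows of a gene gave the same count. Only Cd74, H2-DMa, Ciita, Rfx5 and Rfxank had several rows. For Cd74 and Rfxank, with 2 rows each, the authors' FPKM (fragments scaled by transcript length and library size) put the whole level on 1 row in every library. For Rfx5, with 4 rows, it split the level over the same 2 rows in each library, at 9.59 and 3.71 FPKM in WT replicate 1, 16.6 and 6.41 in WT replicate 2, and 7.93 and 3.07 in KO. H2-DMa carried 87.1, 93.4 and 198 FPKM on 1 row and 3.61, 3.87 and 8.20 on the other.

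Ciita is known to be transcribed from separate promoters that different cell types use. Its 5 rows fall into 3 regions of transcription start on the plus strand of chromosome 16 (GENCODE M21, GRCm38). In KO, 85.3% of the FPKM (7.72 of 9.04) was assigned to the transcript that starts at 10489781, the most downstream of them. The transcript that starts at 10488279 received 0.893 FPKM, and the 3 that start at 10480059 or 10480164 received 0.433 FPKM on 1 row and 0 on the others. All 5 rows list the same 12 counts, so the split rests on the authors' estimate and not on reads counted for 1 start alone.

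Per length of transcript, Cd74 stood highest in KO with 797 FPKM (702 to 902, the Poisson interval of its count carried over), followed by H2-Ab1 with 645 (559 to 741), H2-DMb2 with 497 (405 to 603), H2-Aa with 360 (295 to 435) and H2-Eb1 with 358 (304 to 419). Each of these neighbours overlapped the next within counting error. H2-DMb1 with 230 FPKM (181 to 287) and H2-DMa with 206 (164 to 255) came next and overlapped each other. Rfx5, Ciita and Rfxank followed far below at 11.0, 9.04 and 8.36 FPKM, and could not be ordered at this depth. Among all 24982 symbols ordered by FPKM, Cd74 stood at place 105 in KO, place 181 in WT replicate 2 and place 5079 in WT replicate 1. H2-Ab1 stood at place 128 in KO, and at 1980 and 3576 in WT replicates 1 and 2. In the WT libraries the order was different: H2-DMa led in WT replicate 1 with 90.8 FPKM, and Cd74 led in WT replicate 2 with 384.

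The make-up of the class II message differed between all 3 libraries. Over the 7 chain, invariant chain and DM genes there were 116, 268 and 978 counts. H2-DMa made up 44.0% of them (exact Clopper-Pearson 95% interval 34.8 to 53.5), 18.3% (13.8 to 23.4) and 8.59% (6.91 to 10.5) in that order. Cd74 made up 6.03% (2.46 to 12.0), 56.0% (49.8 to 62.0) and 25.8% (23.1 to 28.6). The shares of H2-Ab1 (20.7% and 20.6%) and H2-Eb1 (16.4% and 16.0%) were alike in WT replicate 1 and KO, while WT replicate 2 was lower at 4.10% and 7.84%. H2-DMb2 made up 2.59% and 0.746% of the counts in the WT libraries and 10.4% in KO (8.58 to 12.5).

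**Figure D2:**
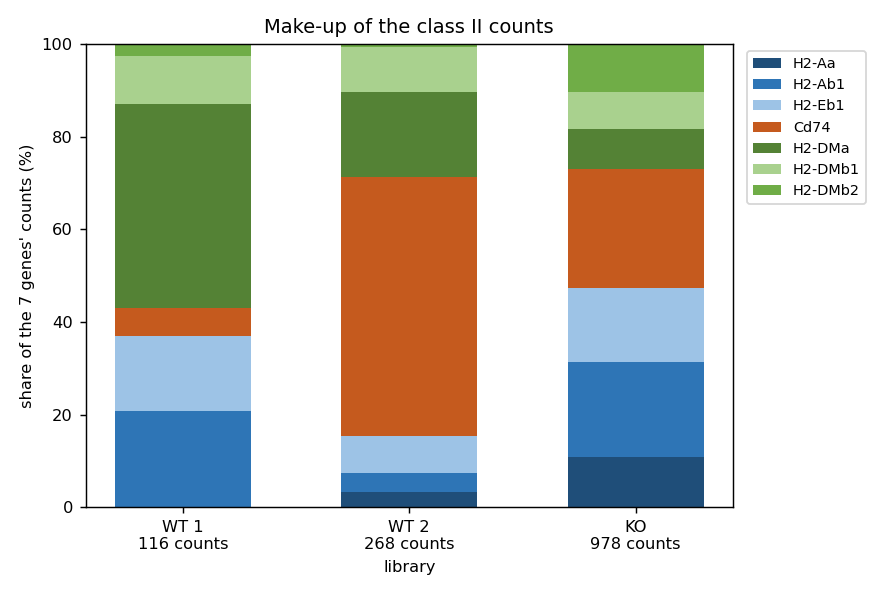
Share of each gene in the summed counts of the 7 chain, invariant chain and DM genes (vertical axis, percent) in each library (horizontal axis, with the summed counts). H2-DMa is the largest part in WT replicate 1 at 44.0%, Cd74 in WT replicate 2 at 56.0%, and in KO no gene exceeds the 25.8% of Cd74.

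KO exceeded both WT libraries in 8 of the 10 members, beside 31.1% of the 7984 genes that entered the test across all genes. It was below both in 1 member, Rfx5, beside 38.2% of those genes. In the same 8 members KO was at least 2-fold above each WT library (CPM plus 1). That held for 9.25% of the 2831 genes that reached 50 counts in any library, a limit that 7 members met, H2-Aa, H2-Ab1, H2-Eb1, H2-DMb1 and H2-DMb2 through the KO library alone. In the test across all genes (edgeR quasi-likelihood, Benjamini-Hochberg adjustment), 9 members entered and 3 were called higher, H2-Aa, H2-Ab1 and H2-DMb2, beside 0.1% of all genes tested (8 genes). DESeq2 on the same genes also called 3 members, H2-Ab1, H2-Eb1 and H2-DMb2, beside 0.138% (11 genes). It called none on all symbols without a filter on low counts, and edgeR called no member with a stricter filter or with the mean or sum over transcript rows. Since the members were chosen on this contrast, these counts describe the choice and carry no weight of their own. Ciita did not enter the test because its 12 counts fell below the filter.

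**Figure D3:**
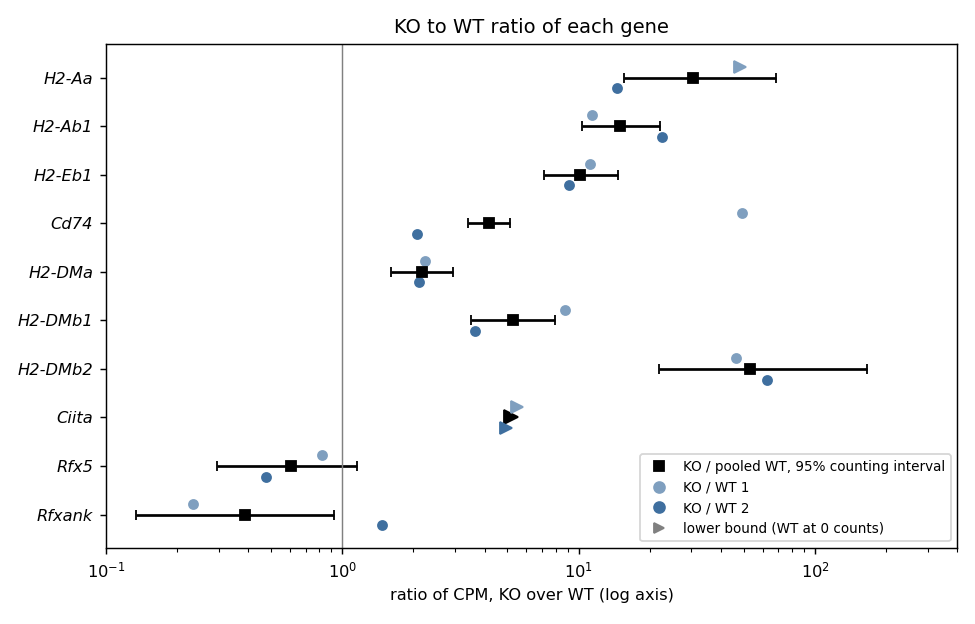
Ratio of CPM in KO to CPM in WT for each gene (horizontal log axis); black squares are ratios to the pooled WT libraries with exact conditional binomial 95% intervals (counting error only), circles ratios to each WT library, and triangles lower bounds against 3 counts in each WT library where WT had none. The ratio to the pooled WT libraries runs from 2.18 for H2-DMa to 52.9 for H2-DMb2 among the genes higher in KO, and the points for Cd74 lie apart at 49.2 and 2.06.

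**Figure D4:**
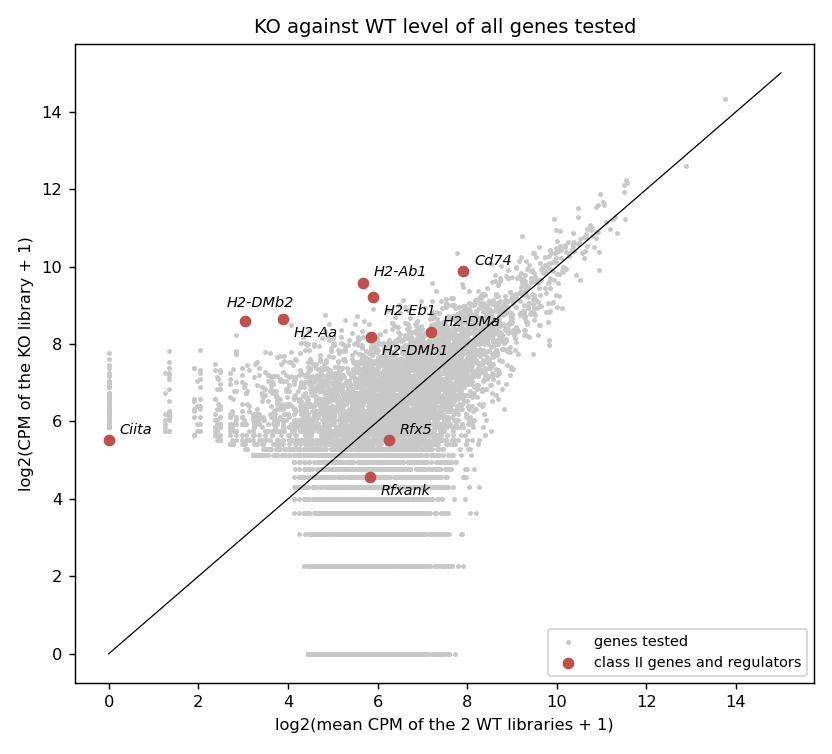
Level in the KO library against the mean level of the 2 WT libraries, both as log2(CPM + 1), for the 7984 genes tested (grey) and the 10 members (red; Ciita was not among the genes tested), with the line of equal levels. The 7 chain, invariant chain and DM genes and Ciita lie above the line, and Rfx5 and Rfxank below it, within a wide cloud of genes of low level.

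Genes that lie between the class II members on chromosome 17 were read as neighbours chosen by position. The span from H2-DMa to H2-Eb1 (34119693 to 34316674) held 5 other protein-coding genes of the files: the peptide transporters Tap1 and Tap2 and the immunoproteasome subunits Psmb8 and Psmb9, which serve class I presentation, and H2-Ob, the beta chain of DO, an inhibitor of DM. Counts of Tap1 were 232, 173 and 242, a log2 fold change of 0.68 with SE 0.52 (edgeR adjusted p 0.75), and those of Tap2 226, 110 and 222, a change of 0.84 with SE 0.55 (adjusted p 0.67). Psmb8 had 168, 65 and 167 counts, and its KO level of 631 CPM was above both WT libraries at 465 and 200 CPM. Psmb9 had 135, 47 and 72 counts, with KO between the WT libraries in CPM. H2-Ob had 48, 33 and 12 counts, so that KO at 45.3 CPM was below both WT libraries at 133 and 102 CPM (log2 fold change -1.32, SE 1.44, adjusted p 0.83). In CPM, KO exceeded both WT libraries in 3 of the 5, Tap1, Tap2 and Psmb8, beside 31.1% of all genes tested. None of the 5 was called, and their median log2 fold change was 0.68, against -0.31 over all genes tested. H2-Oa, the alpha chain of DO, had 0, 0 and 6 counts.

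Of 39 other genes of the class II pathway 24 entered the test. edgeR called 0 higher and 0 lower, with 1 higher and 0 lower at an unadjusted p under 0.05, beside 3.53% of all genes tested that were higher at that level. DESeq2 on the same genes called 0, with 0 higher and 1 lower (Nfyb, an NF-Y subunit with 29, 5 and 0 counts) at an unadjusted p under 0.05, beside 9.23% of all genes tested that were lower. The median log2 fold change was -0.20 over these 24 genes, 10 of them positive, against -0.31 over all genes tested, 43.1% of them positive. The gene with an unadjusted p under 0.05 in edgeR, but not in DESeq2 on the same genes, was Irf8, which directs progenitors towards dendritic cells and monocytes. It had 1, 37 and 126 counts, or 2.77, 114 and 476 CPM (log2 fold change 3.08, SE 0.94, edgeR adjusted p 0.14). Like Cd74 it was higher in WT replicate 2 than in WT replicate 1 and highest in KO. Spi1, the myeloid factor PU.1, had 4, 16 and 34 counts, and Tcf4, the E protein of plasmacytoid dendritic cells, 22, 12 and 34. KO was the highest library for both, and neither was called (adjusted p 0.74 and 0.82).

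In the group from interferon gamma to Ciita, 6 of 8 genes entered the test. Ifngr1, a chain of the interferon gamma receptor, had 44, 66 and 67 counts, Usf1 74, 18 and 80, and Irf1, an interferon-induced factor, 101, 22 and 48. Irf1 in KO, at 181 CPM, lay between WT replicates 1 and 2 at 279 and 67.7 CPM. The proteins that join RFX on the promoter gave 8 tested genes, with 7 of 8 log2 fold changes negative and a median of -0.58. Over all genes tested the median was -0.31, with 43.1% positive. In CPM, KO was below both WT libraries in 2 of the 8 and above both in 1, beside 38.2% and 31.1% of all genes tested. None of the 8 was called by edgeR. Among them, Smarca4, the chromatin remodelling ATPase BRG1, was at 202, 167 and 165 counts, a log2 fold change of 0.26 with SE 0.58 (edgeR adjusted p 0.94). The NF-Y subunits Nfya and Nfyc had 68, 22 and 20 and 39, 35 and 27 counts. Among the endosomal proteases and reductases, Ctsd had 108, 94 and 39 counts and Ctsb 48, 71 and 35. KO was below both WT libraries in CPM for these 2 of the 4 tested genes, beside 38.2% of all genes tested. For Ctsb, KO at 132.2 CPM was almost level with WT replicate 1 at 132.7 CPM (log2 fold change -0.36, SE 1.07). Ctsd had a log2 fold change of -0.95 with SE 0.91, and edgeR called neither (adjusted p 0.95 for Ctsb and 0.80 for Ctsd). Ifi30, the thiol reductase of endosomes, had 5, 28 and 16 counts. For surface turnover and costimulation, Cd80 had 32, 38 and 14 counts, Cd86 0, 18 and 0, and March8, a ubiquitin ligase that removes class II from the surface, 0, 7 and 1.

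Markers of other class II expressing cells were given beside the members, because fewer cells of a type and less RNA per cell cannot be told apart in bulk samples. In each library 4 of 10 markers of conventional dendritic cells had at least 1 count. Their summed levels were 124 and 89.2 CPM in WT and 234 CPM in KO. Sirpa had 8, 8 and 23 counts, Plbd1 1, 2 and 9, and Xcr1 0, 2 and 3, so Plbd1 and Xcr1 were under 3 counts in WT. Clec9a, a receptor of conventional dendritic cells and their progenitors, had 0, 0 and 27 counts, at least 11.7-fold higher in KO against 3 counts in each WT library (edgeR adjusted p 0.23). Clec10a had 32, 17 and 0 counts, Itgax 4, 0 and 0, and Zbtb46, Batf3, Cd209a and Ccr7 had 0 in every library. Of 6 markers of plasmacytoid dendritic cells, Bst2 (14, 1 and 41 counts) and Tcf4 were detected, with summed levels of 99.5, 40.0 and 283 CPM, and Siglech, Ccr9, Ly6d and Cox6a2 were at 0 in every library. The part of dendritic cells in the class II levels was not tested.

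B lineage markers summed to 16.6 and 64.6 CPM in WT and 7.56 CPM in KO. Pax5 alone of 8 was detected in KO, with 2 counts, and Cd79a, Ms4a1, Ebf1 and Igll1 were at 0 in every library. The sums rest on few counts, with Pax5 at 1, 2 and 2 and Cd79b at 5, 17 and 0. Monocyte and macrophage markers summed to 191 and 625 CPM in WT and 310 CPM in KO. They did not share one direction: Lyz2 had 32, 112 and 20 counts, Csf1r 0, 4 and 14, and Ly6c2 30, 70 and 47. WT replicate 2, the WT library with high Cd74, had the highest sum of this list. T, NK and innate lymphoid markers summed to 194, 111 and 159 CPM, and endothelial and stromal markers to 144, 191 and 128 CPM. These sums rest mostly on single genes, Nkg7 at 188, 98.5 and 155 CPM and Pecam1 at 144, 191 and 98.2 CPM. Cd3e, Cd3g, Cd8a, Klrb1c, Il7r, Cdh5, Kdr, Lepr and Col1a1 had 0 counts in every library, and Cxcl12 had 0, 0 and 8. The parts of these cells were not tested. Of the 8 genes of the LKS gate and early progenitors, Kit had 187, 207 and 147 counts, Ly6a, which encodes Sca1, 60, 19 and 36, and Cd34 230, 194 and 110. Mecom, a stem cell regulator, had 31, 21 and 0 (edgeR adjusted p 0.33). The others were Hlf with 31, 34 and 22, Meis1 with 80, 111 and 31, Procr with 14, 14 and 13, and Flt3 with 104, 151 and 56. In CPM, KO was below both WT libraries in 5 of the 8, beside 38.2% of all genes tested. It was above both in 1, Procr, beside 31.1%. None of the 8 was called by edgeR. The sum of this list was 2038 and 2311 CPM in WT and 1568 CPM in KO.

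**Figure D5:**
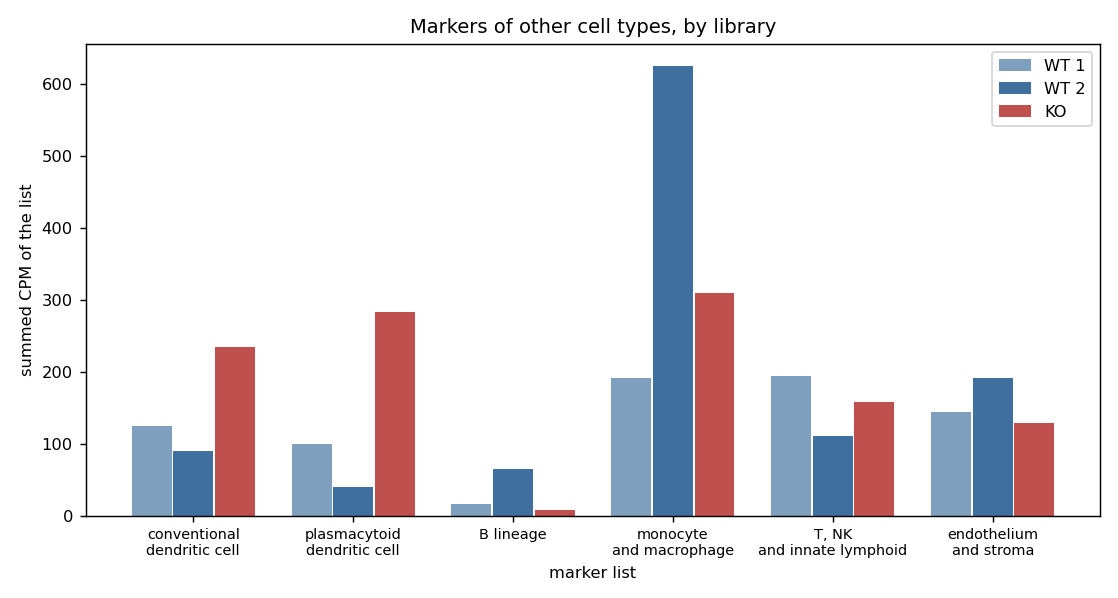
Summed CPM (vertical axis) of each marker list (horizontal axis) in WT replicate 1, WT replicate 2 and KO. The dendritic cell lists are highest in KO at 234 and 283 CPM, the B lineage list is lowest in KO at 7.56 CPM, and the monocyte and macrophage list is highest in WT replicate 2 at 625 CPM.

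The genes most like H2-Ab1 were sought by the distance between profiles, as log2(CPM + 1) centred on the gene's mean over the 3 libraries, among 2759 genes, which are those that reached 50 counts in any library without the members, predicted genes and clones named by number, pseudogenes and mitochondrial genes. The nearest 5 were Tsc2 (9, 4 and 69 counts, distance 0.13), Ddx55 (7, 4 and 58, 0.30), Mrpl17 (8, 4 and 51, 0.43), Ankrd12 (8, 3 and 95, 0.50) and Usp40 (10, 6 and 68, 0.51). H2-Eb1, the nearest member, lay at 1.03 with 20 genes nearer than it, and H2-DMb2 at 1.36 with 52 nearer. These nearer genes were counted among 2765 genes, with the other members included. Cd74 at 3.90 and H2-Aa at 4.49 were far, with 1737 and 2160 genes nearer. The distance of H2-Aa depends on the 1 CPM added to its 0 counts in WT replicate 1. The 5 nearest genes, like H2-Ab1, reached 50 counts through the KO library alone. Among genes with low WT counts, this limit keeps only those that are high in KO. How far a profile over 3 libraries sets the class II genes apart from other genes therefore cannot be read from these distances.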

How the data were processed

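RNA was extracted from sorted LKS cells with the RNeasy micro kit and made into libraries with NEB kits, per the labels' protocols. The authors deposited whole-number counts and FPKM per RefSeq transcript for each library. The submitters' processing notes name STAR and mm10 without versions or roles, while the counting tool, FPKM tool and strand use were not given in the sources used here. The 3 files list 42574 rows each. A gene's count was the highest over its rows, since rows of a gene repeat shared reads, and its FPKM the sum over rows. CPM was taken on the total of gene counts.

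The titles and the design text gave the groups. All genes were fitted with edgeR 4.0.16 in R 4.3.3 (filterByExpr, TMM, quasi-likelihood test, adjusted by Benjamini-Hochberg, threshold 0.05), with 1 residual degree of freedom, so the spread of the WT pair stands in for that of KO. The p-values reflect the spread among these libraries alone, which may be technical. SE is the absolute log2 fold change over the square root of F. DESeq2 1.42.0 was an alternative; on the filtered genes its dispersion trend was a local fit.

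The members, lists and tests were chosen with earlier results of these data known. Named genes were the 10 members, up to 3 of the most abundant genes of each pathway group, pathway genes past the test, defining markers, and the 5 genes nearest to H2-Ab1. Rfxap, Clec9a, Clec10a, Bst2, H2-Ea-ps, Nfyb, Pax5, Cd79b and Mecom were named after their values were seen. So were the neighbours by position and the genes sharing the promoter motif pair. The same holds for Csf1r, Ly6c2, Sirpa, Plbd1, Xcr1, Flt3, Hlf, Meis1, Procr and the named T, NK, innate lymphoid, endothelial and stromal markers. Alternatives were other scalings, transcript rows, FPKM, filters, pseudocounts and leaving out a WT library.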

Additional observations from a re-analysis of the deposited data

How the results depend on the processing

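No paired analysis was possible because the KO library carries no replicate number. KO was higher than the WT libraries used in 8 members under each scaling, row rule and FPKM, and in 8 to 9 when a WT library was left out; the ninth was Rfxank, whose log2 ratio was -1.36 against the pooled WT libraries 0.56 without WT replicate 1 and -2.09 without WT replicate 2. The log2 ratio of the summed members was 2.46, and 2.02 to 3.01 with a WT library left out. That of Cd74 was 2.06, and 5.62 without WT replicate 2. That of H2-DMb1 was 2.39, and 3.13 without WT replicate 2. For Ciita, taken against 3 counts in each WT library, it was 2.38, and 4.73 with the sum over transcript rows. That sum adds the same 12 KO counts over 5 rows. The 8 genes called higher by edgeR became 4 with no low-count filter, 0 with at least 10 counts in every library or 50 in any, 1 with the mean and 0 with the sum over transcript rows, and 0 by DESeq2 on all gene symbols, a setting added after the filtered run was seen. The 3 member calls (H2-Aa, H2-Ab1 and H2-DMb2) stood with no filter and fell to 0 under the other 4 of these settings. DESeq2 on the filtered genes called 2 genes lower, where edgeR called 0 (520 at an unadjusted p under 0.05). The cause was not tested. Without a WT library there is no residual degree of freedom, so the genes called were not recomputed. At this depth a gene under 3 counts in a library, 8.30 to 11.3 CPM, cannot be told from absent.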
